A study of Homo sapiens with 60 samples.

Results

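The 43 genes described here are MYC and factors of ribosome biogenesis, taken by symbol from a gene count table of 60675 rows. Each symbol matched exactly 1 row by its Ensembl identifier, and all 43 passed the filter on low counts. Ribosomes are assembled in the nucleolus, where RNA polymerase I transcribes a long precursor RNA. Small nucleolar ribonucleoproteins then modify it, and a large set of assembly factors cut, fold and pack it with ribosomal proteins into the 40S and 60S subunits. MYC is a transcription factor that pairs with MAX, binds the sequence CACGTG (the E-box) and is known for driving this programme, and colorectal cancer cells often hold MYC at a high level through WNT signalling.

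HT29, an established human colorectal adenocarcinoma line, was grown with an ethanol extract of a herb or herbal formula or with the vehicle DMSO for 24 h, and mRNA was sequenced. Each extract was given at 3 doses, named high, medium and low. Polygalae Radix was used at 380, 76 and 15.2 µg/mL and Aucklandiae Radix at 370, 74 and 14.8 µg/mL. Menthae Herba, Saposhnikoviae Radix and the formulas Saengmaek-san, Guibi-tang, Soyo-san and Okbyeongpung-san were used at 500, 100 and 20 µg/mL. The design text gives 500 µg/mL as the high dose, replaced by the IC20, an inhibitory concentration, for extracts whose IC20 was smaller, so the high doses of Polygalae Radix and Aucklandiae Radix were set by their IC20. The vehicle is 0.1% DMSO in the sample labels and 2% DMSO in the design text. There were 3 vehicle libraries, 3 per dose for Menthae Herba, Saposhnikoviae Radix, Saengmaek-san and Guibi-tang, 2 per dose for Polygalae Radix, Aucklandiae Radix and Soyo-san, and 1 per dose for Okbyeongpung-san. A wortmannin control named in the design text was not analysed here. The sources do not say whether the replicates were separate cultures, so a p-value here reflects only library-to-library spread, possibly of technical origin.

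Each library held between 18690518 and 36796438 counts, except 1 with 17079253, and the members together took 0.714% to 0.945% of the counts. The library with the lowest total, labelled Saposhnikoviae Radix low replicate 2, stood apart: 19 members lay below and 19 above their range in all the other 59 libraries, with MYC at 13.4 counts per 1000000 (CPM), HEATR1 at 8.58 CPM, FBL at 1320 CPM and NOP58 at 1300 CPM. It was left out of every value below unless it is named, which leaves Saposhnikoviae Radix low with 2 libraries. The counts of members called in comparisons of groups are given with it as well, singly or summed over the extracts. For the fit with it no share of all genes is given, and the shares printed belong to the fit without it. The epithelial markers of the line were present, EPCAM at 241 to 577 CPM and KRT8 at 3660 to 18300 CPM, whereas CDX2 was low at 0.978 to 7.66 CPM. Of 5 fibroblast markers COL1A2, COL3A1 and DCN had a median of 0 CPM, while COL1A1 (0.333 to 2.63 CPM) and LUM (0.333 to 1.31 CPM) were detected in every library. Of 5 blood cell markers PTPRC, CD3E, HBB and SPI1 had a median of 0 CPM, and CD79A ran from 0 to 1.38 CPM. Of 4 hepatocyte markers ALB had a median of 0 CPM, APOA1 and TTR reached 0.25 and 0.833 CPM, and SERPINA1 was present at 171 to 442 CPM.

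Per kilobase of exon, the vehicle cells expressed the nucleolar chaperones most. NPM1 (nucleophosmin) stood at 413 CPM per kb and NCL (nucleolin) at 207 CPM per kb, followed in the same class by the RNA helicase DDX21 at 89.7, the small nucleolar RNP chaperone NOLC1 at 88 and the nucleolar GTPase GNL3 at 27.8. Among the box C/D proteins, which guide ribose methylation, the methyltransferase FBL stood at 172 CPM per kb and its core partners NOP56 and NOP58 at 46.9 and 43.6. The box H/ACA proteins, which make pseudouridine, ran from NOP10 at 195 CPM per kb through the enzyme DKC1 at 69.8 and NHP2 at 68.6 to GAR1 at 14.3. MYC itself was the fifth of the 43 members at 119 CPM per kb.

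The remaining factors all stood at 46 CPM per kb or less. The 2 largest subunits of RNA polymerase I, POLR1A and POLR1B, stood at 13.2 and 10.7 CPM per kb. In the small subunit processome, the complex that makes the first cuts towards 18S RNA, levels were 43.9 for NOP14, 30.6 for WDR43, 30.2 for the U3 RNP protein RRP9, 19.1 for UTP4, 16.3 for HEATR1, 14.6 for UTP14A, 12.1 for WDR75, 9.05 for WDR36, 8.79 for the helicase DDX10, 8.25 for UTP20, 8.03 for WDR3 and 4.93 for UTP15, the lowest of all members. The late 40S factors, which travel with the precursor towards the cytoplasm, stood at 35.7 CPM per kb for the endonuclease NOB1, 21.7 for LTV1, 17.4 for BYSL, 15.7 for both PNO1 and TSR1 and 10.4 for the export factor RRP12. Among the 60S factors the levels were 46 for MRTO4, 36.8 for RRS1, 25.6, 24.2 and 6.64 for BOP1, PES1 and WDR12 (which form 1 complex), 22.8 for the RNA methyltransferase NOP2, 18.9 for the helicase DDX18, 16.2 for NOP16, 12.8 for NIP7 and 11.9 for RRP1B. The vehicle libraries themselves varied most in absolute terms at NCL, which had 1120, 1520 and 1670 CPM.

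MYC binds the letters CACGTG, so the promoters of the members were read for this motif (it is its own reverse complement, so both strands are covered) from 250 bases before to 50 bases after each gene's start in the RefSeq promoter table of GRCh38.p14. Of the 43 members, 35 had a window there, and 14 of these (40%) held the motif, against 7.26% of all 35116 promoters in the table and 9.96% of the 11329 promoters of genes in the fit. The stretches shown belong to members whose values are described below. Capitals mark the motif, and each stretch reads 5′ to 3′ on the gene's own strand.
RRP9 (chr3:51941892-51941921, minus strand, motif beginning 5 bases before the start): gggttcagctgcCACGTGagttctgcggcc
FBL (chr19:39846356-39846385, minus strand, motif beginning at base 7 of the transcript): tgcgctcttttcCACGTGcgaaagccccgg
NOP10 (chr15:34343130-34343159, minus strand, motif beginning 11 bases before the start): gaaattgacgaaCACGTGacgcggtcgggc
NOP10 (chr15:34343289-34343318, minus strand, motif beginning 170 bases before the start): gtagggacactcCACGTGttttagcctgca
PNO1 (chr2:68157885-68157914, plus strand, motif beginning at base 10 of the transcript): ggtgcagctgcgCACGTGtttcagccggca
WDR43 (chr2:28894658-28894687, plus strand, motif beginning at base 4 of the transcript): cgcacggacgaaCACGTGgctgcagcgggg
UTP20 (chr12:101280083-101280112, plus strand, motif beginning 10 bases before the start): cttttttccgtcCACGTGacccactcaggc
A match is a description of the letters and not a measured binding site. NOP10 was the member with the motif at more than 1 place. Members with and without the motif did not separate in Menthae Herba, where 13 of 14 with it and 19 of 21 without it rose from low to high dose. In Aucklandiae Radix 10 of 14 with it and 8 of 21 without it rose, and in Polygalae Radix 5 of 14 and 7 of 21, and these shares were not tested against each other.

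MYC was lower in the extract libraries than in the vehicle libraries and rose with dose in 3 extracts. The names of the vehicle libraries begin with a letter, and those of every extract begin with a number. For the comparison with the vehicle, an effect of the extracts and a difference between these differently named sets of libraries cannot be told apart. In the vehicle MYC was at 333, 344 and 397 CPM (358 ± 34.1, SD, n = 3). Among the 56 extract libraries, 53 lay below the lowest vehicle library and none above the highest. At low dose MYC was at 259 and 265 CPM in Polygalae Radix, 264 and 274 in Aucklandiae Radix, 253, 258 and 270 in Menthae Herba, 234 and 253 in Saposhnikoviae Radix, 232, 253 and 248 in Saengmaek-san, 250, 247 and 269 in Guibi-tang and 233 and 237 in Soyo-san. None of these libraries reached the vehicle, and they spanned 232 to 274 CPM. The log2 difference from the vehicle ran from -0.42 to -0.61 at low dose and from -0.29 to -0.61 at medium dose, and it passed the test in 7 of 7 extracts at both doses (adjusted p under 0.05 in edgeR's quasi-likelihood F-test, adjusted by Benjamini-Hochberg over all genes, here and below).

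High dose brought MYC closest to the vehicle in Polygalae Radix and Menthae Herba. Its values were 349 and 339 CPM in Polygalae Radix high, 333, 323 and 323 CPM in Menthae Herba high and 305 and 300 CPM in Aucklandiae Radix high. All 7 of these libraries were above every low-dose library of their own extract. Against low dose MYC rose by a log2 fold change of 0.39 ± 0.07 (SE) in Polygalae Radix (adjusted p = 5.97e-06), by 0.33 ± 0.05 in Menthae Herba (adjusted p = 7.48e-06) and by 0.17 ± 0.07 in Aucklandiae Radix (adjusted p = 0.023). The Aucklandiae Radix call was lost without high replicate 2 (adjusted p = 0.0844) or low replicate 2 (adjusted p = 0.121). The difference was 0.14 in Saposhnikoviae Radix (adjusted p = 0.583), 0.11 in Saengmaek-san (adjusted p = 0.35), 0.12 in Guibi-tang (adjusted p = 0.118) and 0.12 in Soyo-san (adjusted p = 0.448), none past the threshold. Against the vehicle, MYC at high dose was lower by test in 5 extracts. In Polygalae Radix the difference was -0.06 (adjusted p = 0.447), and it became 0.02 without vehicle replicate 3. In Menthae Herba it was -0.14 (adjusted p = 0.0512), and it passed the test without vehicle replicate 1 (adjusted p = 0.0124) or replicate 2 (adjusted p = 0.0327). When the outlying library entered the fit, MYC passed against the vehicle or the low dose in Saposhnikoviae Radix low alone, the group it is labelled as (-1.09, adjusted p = 0.0208), and the other calls had an adjusted p from 0.666 to 1. Okbyeongpung-san, with 1 library a dose and thus no test, had MYC at 246 CPM at high, 238 CPM at medium and 231 CPM at low dose.

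**Figure D1:**
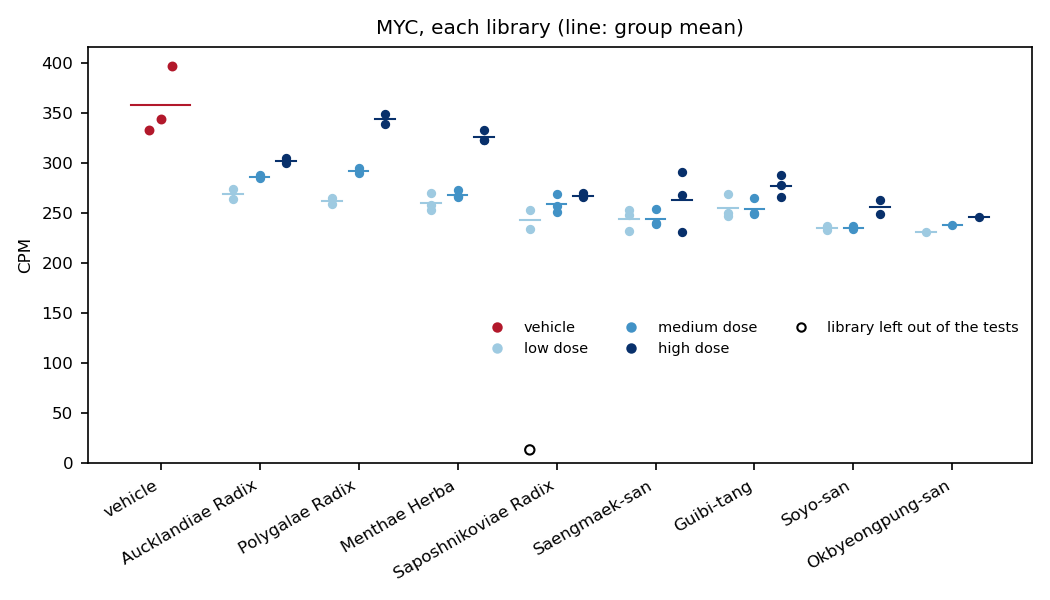
MYC level in CPM (vertical axis) in each library (points, with lines at group means), by extract and dose, with the vehicle libraries in red and the outlying library as an open circle. The vehicle points lie at 333 to 397 CPM, and among the extract groups the high doses of Polygalae Radix (339 and 349 CPM) and Menthae Herba (323 to 333 CPM) come nearest to them.

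Menthae Herba raised nearly the whole set together and moderately. Of 43 members 39 rose from low to high dose and 0 fell, in a comparison where 12.0% of the 16978 genes tested rose. The log2 fold changes ran from 0.13 to 0.46 with a median of 0.26, while the median of all genes was -0.01, and no member reached a 2-fold change in this or any other comparison of high with low dose. In all 43 members every high-dose library lay above every low-dose library, as in 20.7% of all genes, and 41 members had group means in rising order over the 3 doses, as in 26.3% of all genes. Values in CPM are shares of a library's counts, and in bulk cultures fewer cells of a type and less RNA per cell cannot be told apart.

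By role, the Menthae Herba increase took in every class of factor. All 10 of the 60S factors, all 6 late 40S factors, all 4 box H/ACA proteins and all 5 nucleolar chaperones rose, as did 10 of 12 processome members, 2 of 3 box C/D proteins and 1 of 2 polymerase subunits. RRP9, the U3 RNP protein with an E-box beside its start, was at 40.6, 41.1 and 44.1 CPM at low dose and at 57, 57.9 and 58.6 CPM at high dose. The 2 groups are well apart, and the log2 fold change was 0.46 ± 0.06 (adjusted p = 2.4e-08). NOLC1, which chaperones small nucleolar RNPs, was at 364, 356 and 355 CPM at low and 434, 419 and 442 CPM at high dose, a change of 0.27 ± 0.04 (adjusted p = 1.06e-07). TSR1, a GTPase-like factor on the late 40S precursor, was at 94, 87.6 and 90.1 CPM at low and 106, 111 and 114 CPM at high dose, a change of 0.28 ± 0.04 (adjusted p = 3.91e-07). NOP16, a 60S factor, had a log2 fold change of 0.43 ± 0.07, the largest in its class. The 4 members that missed the threshold also lay higher at high dose: NOP58 by 0.14, POLR1A by 0.13 (adjusted p = 0.0796), WDR36 by 0.14 and UTP14A by 0.15 (adjusted p = 0.0769). Menthae Herba high replicate 3 held the highest value of all 59 libraries for 12 members. Without each Menthae Herba library in turn 34 to 38 members passed. The fit that held the outlying library called 10.

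**Figure D2:**
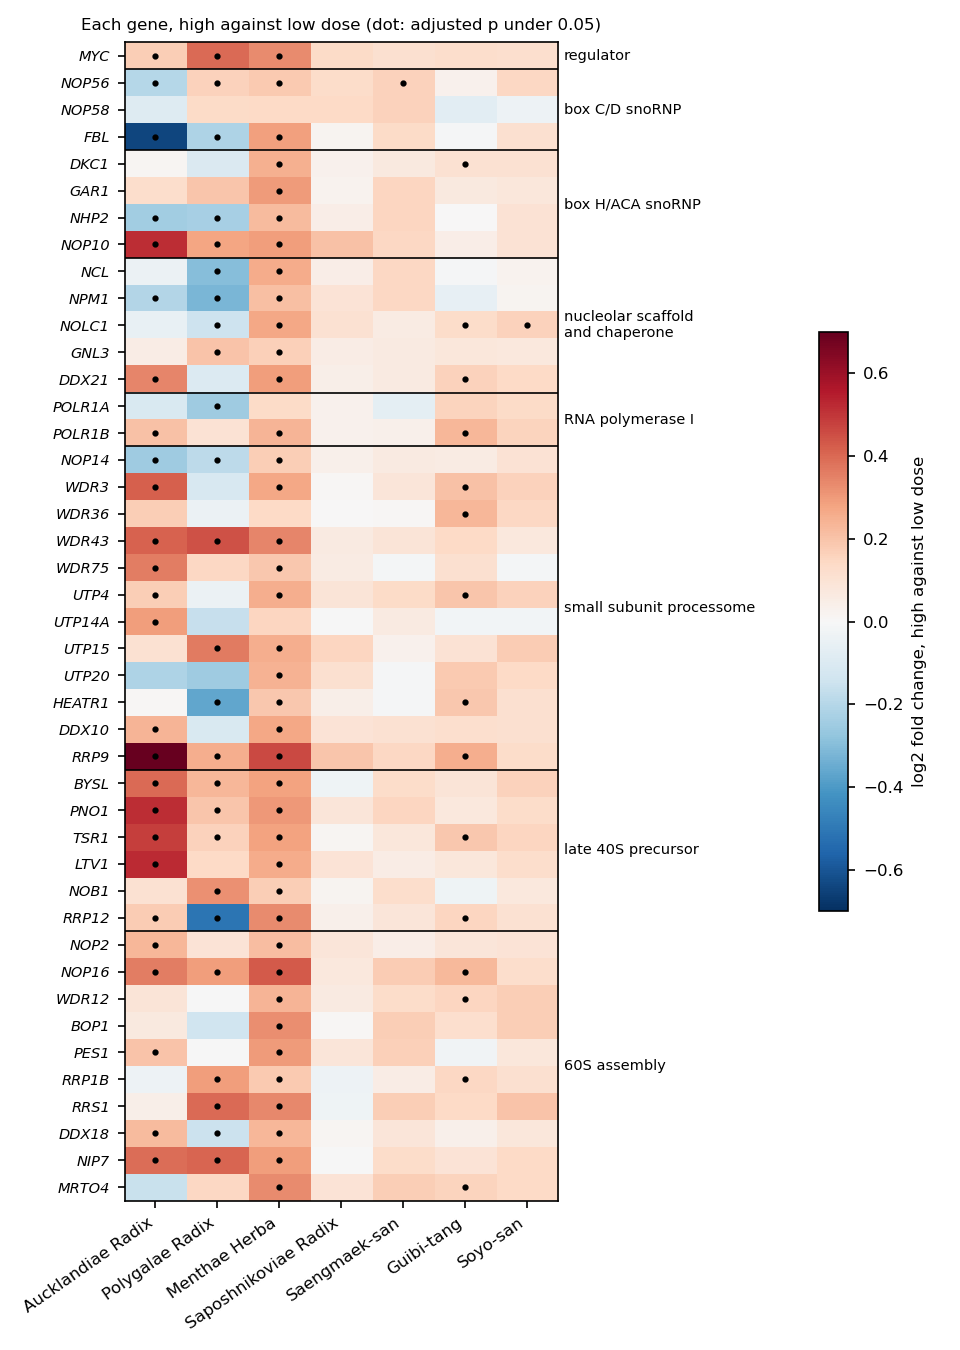
Log2 fold change from low to high dose (colour) for the 43 members (rows, by role) in the 7 extracts with replicates (columns), with calls at adjusted p under 0.05 marked. The Menthae Herba column is positive throughout (0.13 to 0.46), whereas the Aucklandiae Radix (-0.64 to 0.69) and Polygalae Radix (-0.51 to 0.45) columns hold both directions.

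Aucklandiae Radix moved the members apart. From low to high dose 21 rose, where 29.6% of all genes rose, and 5 fell, where 29.1% of all genes fell. In all 60.5% of the members and 58.7% of all genes passed, so the members were called about as often as other genes, and the members' median was 0.17 against -0.02 for all genes. Late 40S and processome factors made up most of the rising side, with 5 of 6 and 7 of 12 called. FBL and NOP56 of the box C/D complex were on the falling side. Among the markers of other cell types, CD79A went from a mean of 0.0983 to 1.21 CPM (3.57 ± 0.70, adjusted p = 2.6e-05) and COL1A1 from 1.62 to 2.49 CPM (0.62 ± 0.23, adjusted p = 0.0185) in the same libraries. Their part in the values of the members was not tested.

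Of the rising members RRP9 had the lowest adjusted p. RRP9 was at 43.7 and 44.5 CPM at low dose, 46.5 and 48.5 CPM at medium and 72 and 70.4 CPM at high dose. The high-dose pair lay above every other library of the 59 for this gene, and the log2 fold change of 0.69 ± 0.07 (adjusted p = 6.79e-12) was the largest of any member in any comparison of high with low dose. TSR1 went from 81.6 and 88.4 CPM to 117 and 120 CPM (0.48 ± 0.05, adjusted p = 1.17e-11). WDR3, a processome scaffold protein, went from 80.2 and 82.4 CPM to 107 and 110 CPM (0.42 ± 0.05, adjusted p = 3.71e-10). In both genes the 2 doses were separated by more than the gap between replicates. The other large increases were those of PNO1 (0.52 ± 0.06), LTV1 (0.52 ± 0.09) and NOP10, which had 93.3 and 96.8 CPM at low and 142 and 129 CPM at high dose (0.52 ± 0.08). PNO1 binds beside the NOB1 cleavage site of the 40S precursor, LTV1 is a kinase-regulated late 40S factor, and NOP10 is the small subunit of the pseudouridine complex.

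FBL fell the most. It was at 326 and 333 CPM at low, 321 and 333 CPM at medium and 215 and 207 CPM at high dose, so the decrease appeared between medium and high. The log2 fold change was -0.64 ± 0.07 (adjusted p = 1.67e-10), and the high-dose pair was the lowest of all 59 libraries for FBL. NOP56, which joins FBL and NOP58 in 1 complex, fell from 255 and 246 CPM to 213 and 221 CPM (-0.20 ± 0.05, adjusted p = 0.000466), while NOP58 differed by -0.09 (adjusted p = 0.46). NOP14, a processome factor, fell from 148 and 144 CPM to 121 and 124 CPM (-0.25 ± 0.06, adjusted p = 0.000562). The remaining falls were NHP2 (-0.24) of the pseudouridine complex, whose partner NOP10 rose, and NPM1 (-0.21). Reads of NHP2, NPM1, NOP14, PNO1, TSR1, NOP16, NIP7, HEATR1 and UTP14A were in part divided among similar sequences, since most of their deposited values were not whole numbers, so their levels are less certain. Without each library in turn 23 to 25 members passed, and with the outlying library 10.

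Polygalae Radix also gave a mixed picture with other members on each side. From low to high dose 15 members rose, where 13.3% of all genes rose, and 10 fell, where 16.0% of all genes fell. The members' median was 0.09 and that of all genes -0.01. Late 40S factors were mostly on the rising side (4 of 6 rose and 1 fell), and 3 of 5 nucleolar chaperones fell. Without low replicate 3 the members that passed numbered 15, and without each of the other 3 libraries 18 to 20. The fit that held the outlying library called 8.

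NIP7, a 60S factor, was at 59.7 and 56.9 CPM at low and 76.6 and 77.6 CPM at high dose, a rise of 0.41 ± 0.06 (adjusted p = 1.21e-07). WDR43, the processome protein with an E-box at its start, was at 137 and 123 CPM at low and 170 and 183 CPM at high dose, a rise of 0.45 ± 0.07 (adjusted p = 6.93e-06). Between them by adjusted p came MYC, with the values above. In these 3 genes the high-dose pair lay clear of the low-dose pair. RRS1, which brings the 5S RNP to the 60S precursor, rose by 0.40 ± 0.07, UTP15 by 0.36 ± 0.07 and NOB1 by 0.32 ± 0.06.

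RRP12, an export factor of both subunits' precursors, fell the most in Polygalae Radix. It was at 84.4 and 84.9 CPM at low, 87 and 79.6 CPM at medium and 62.6 and 56.2 CPM at high dose. No other library of the 59 was as low, and the change was -0.51 ± 0.06 (adjusted p = 1.14e-08). NPM1 fell from 1540 and 1480 CPM to 1180 and 1240 CPM (-0.32 ± 0.07, adjusted p = 0.000222), and HEATR1, a processome protein that also acts in polymerase I transcription, fell from 168 and 160 CPM to 120 and 134 CPM (-0.37 ± 0.08, adjusted p = 0.000236). NCL fell by 0.30 on the log2 scale (SE 0.11, adjusted p = 0.036) and POLR1A by 0.25 (SE 0.07, adjusted p = 0.00511). Polygalae Radix high replicate 3 held the lowest value of all 59 libraries for 9 members. The 8 epithelial markers of the line moved in the same samples: 7 of 8 fell, and their summed level was 7370 to 8150 CPM at high dose and 11900 to 12000 CPM at low dose. The fibroblast marker COL1A1 went from 1.68 to 0.946 CPM (-0.82 ± 0.27, adjusted p = 0.0177). The summed hepatocyte markers, nearly all of it SERPINA1, were at 171 to 182 CPM at high dose and 319 to 338 CPM at low dose. Their part in the values of the members was not tested.

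**Figure D3:**
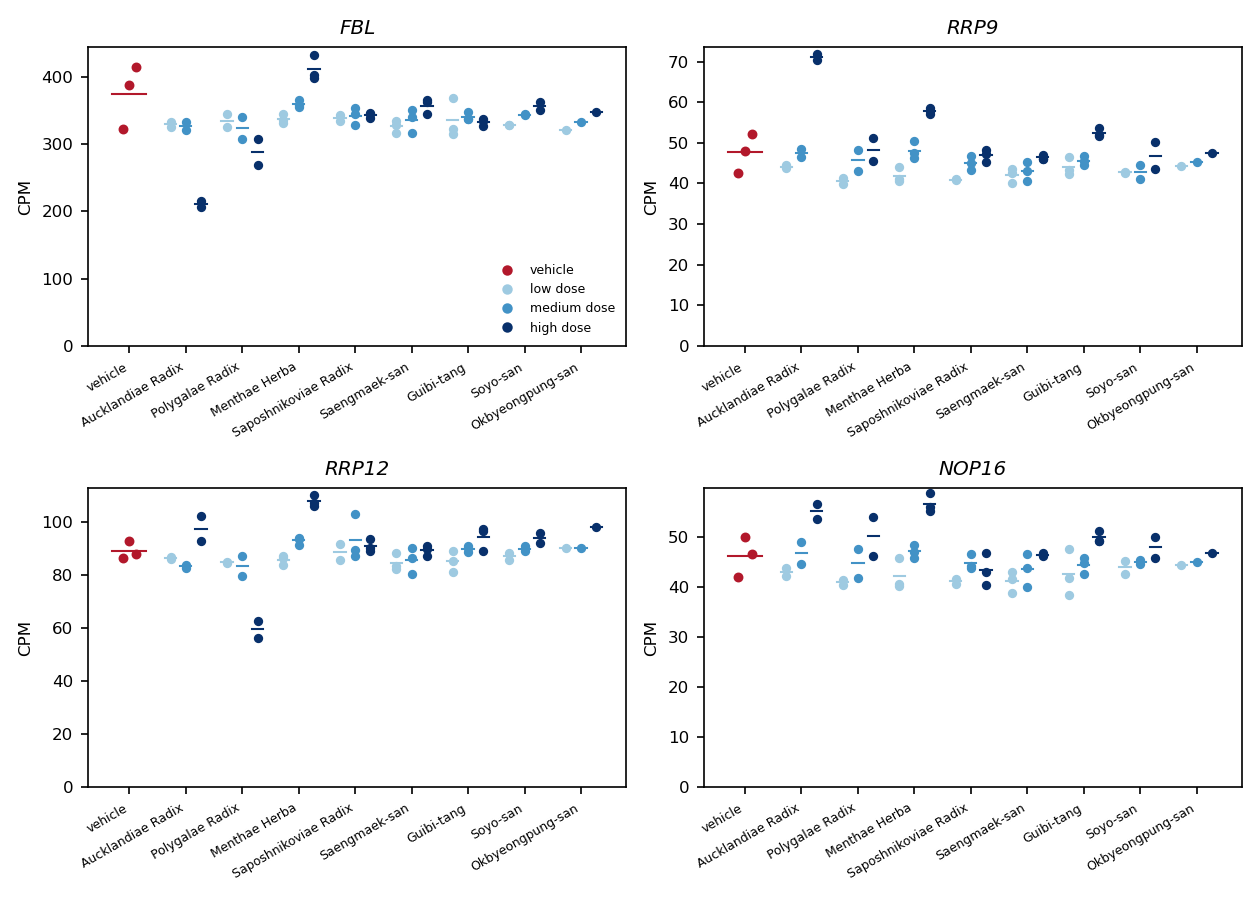
Level in CPM of FBL, RRP9, RRP12 and NOP16 in the 59 libraries other than the outlying one (points, with lines at group means), by extract and dose. FBL at Aucklandiae Radix high (207 and 215 CPM) and RRP12 at Polygalae Radix high (56.2 and 62.6 CPM) lie below the other libraries of the same extract, and RRP9 at Aucklandiae Radix high (70.4 and 72 CPM) lies above them.

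Set side by side, the 2 herbs with the strongest changes shared some members and opposed each other in others. Both raised MYC, NOP10, WDR43, RRP9, BYSL, PNO1, TSR1, NOP16 and NIP7, which are 42.9% of the 21 risers of Aucklandiae Radix and 60% of the 15 of Polygalae Radix. Of all 43 members 21 rose in Aucklandiae Radix and 15 in Polygalae Radix, so some overlap would arise from these counts alone. The overlap was not tested, and that of all genes was not counted. Both lowered FBL, NHP2, NPM1 and NOP14. RRP12 and DDX18 rose with Aucklandiae Radix and fell with Polygalae Radix, and NOP56 did the reverse. These comparisons use different low-dose and high-dose libraries and share none.

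**Figure D4:**
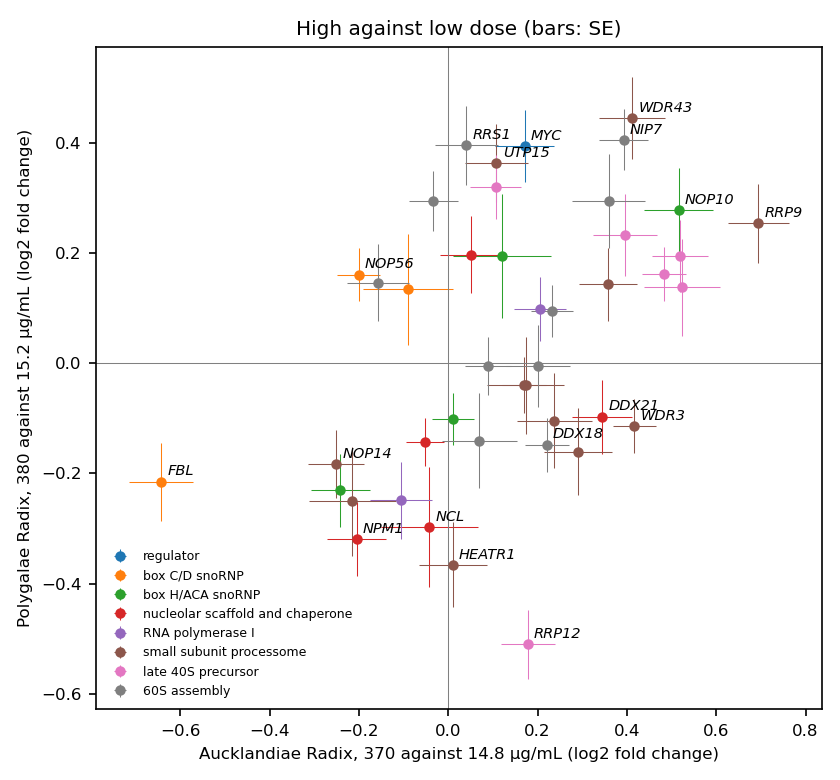
Log2 fold change from low to high dose in Polygalae Radix (vertical axis) against Aucklandiae Radix (horizontal axis) for the 43 members (points, coloured by role), with SE bars. RRP12 (0.18 and -0.51) and NOP56 (-0.20 and 0.16) sit in opposite quadrants, and RRP9 (0.69 and 0.25) and FBL (-0.64 and -0.21) in quadrants where both changes have the same sign.

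The high doses of extracts whose library names share a leading number were then compared with each other. For Polygalae Radix at 380 µg/mL against Aucklandiae Radix at 370 µg/mL, doses that differ slightly, 30 of 43 members differed, 8 higher and 22 lower, where 58.3% of all genes differed. RRP12 was lower in Polygalae Radix, at 62.6 and 56.2 CPM against 92.6 and 102 CPM (-0.71 ± 0.06, adjusted p = 1.84e-13). WDR3 was at 75.6 and 83.5 CPM against 107 and 110 CPM (-0.44 ± 0.05, adjusted p = 8.4e-11), and RRP9 at 51.2 and 45.5 CPM against 72 and 70.4 CPM (-0.56 ± 0.07, adjusted p = 2.11e-09). On the other side NOP56 was at 291 and 268 CPM against 213 and 221 CPM (0.36 ± 0.05, adjusted p = 1.79e-08), FBL at 308 and 269 CPM against 215 and 207 CPM (0.45 ± 0.07, adjusted p = 5.62e-07) and RRP1B, a 60S factor, at 79.5 and 83.1 CPM against 65.1 and 63.1 CPM (0.34 ± 0.05, adjusted p = 6.53e-07). In all 6 genes the libraries of the 2 herbs did not overlap. MYC was higher in Polygalae Radix by 0.18 ± 0.07 (adjusted p = 0.014), a call lost without Polygalae Radix high replicate 2 (adjusted p = 0.101) or Aucklandiae Radix high replicate 3 (adjusted p = 0.0834). In the fit that held the outlying library 10 members differed.

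The dose effects of these herbs, high minus low of one less high minus low of the other, differed in 20 members, 8 higher and 12 lower in Polygalae Radix, where 46.6% of all genes differed, nearly the same share as the members' 46.5%. With RLE in place of TMM scaling the split was 5 higher and 15 lower. RRP12 differed by -0.69 ± 0.09 (adjusted p = 8e-09), WDR3 by -0.53 (adjusted p = 1.14e-08), NOP56 by 0.36 (adjusted p = 2.51e-05) and FBL by 0.43 (adjusted p = 0.000435). For MYC the difference was 0.22 ± 0.09 (adjusted p = 0.0444), a call lost with RLE factors (adjusted p = 0.07), with DESeq2 (adjusted p = 0.0666) and without any 1 of 7 of the 8 libraries (adjusted p from 0.0544 to 0.148). It held without Polygalae Radix high replicate 3 (adjusted p = 0.0477). There were 2 such members in the fit with the outlying library.

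Menthae Herba and Saposhnikoviae Radix, both at 500 µg/mL, differed throughout the set. At high dose 33 members were higher in Menthae Herba and 0 lower, where 16.1% of all genes differed in either direction, and in 42 of 43 members every Menthae Herba library lay above every Saposhnikoviae Radix library, as in 18.4% of all genes. WDR3 was at 98.1, 101 and 103 CPM against 80.7, 84.3 and 81.8 CPM (0.30 ± 0.04, adjusted p = 2.69e-07). TSR1 was at 106, 111 and 114 CPM against 91.1, 92 and 88.2 CPM (0.29 ± 0.04, adjusted p = 7.82e-07). NIP7 was at 73.7, 77 and 79.4 CPM against 64.3, 62.6 and 59.4 CPM (0.31 ± 0.04, adjusted p = 1.91e-06). No library of one herb reached those of the other in these genes, and MYC was higher in Menthae Herba by 0.29 ± 0.05 (adjusted p = 0.00011). The dose effects differed in 9 members, all higher in Menthae Herba, where 3.59% of all genes differed: TSR1 by 0.27 (adjusted p = 0.00467), WDR3 by 0.26, NIP7 by 0.29, RRS1 by 0.36 (adjusted p = 0.00872), RRP12 by 0.30, and DKC1, DDX18, BYSL and NOP16. MYC differed by 0.19 (adjusted p = 0.21). The 9 became 2 without Saposhnikoviae Radix low replicate 1 and 5 without Menthae Herba high replicate 3 or low replicate 3. DESeq2 called 15. The fit with the outlying library called 6 members at high dose and 19 in dose effect, and gave a MYC difference in dose effect of -0.34 (adjusted p = 0.639).

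Saposhnikoviae Radix by itself changed no member from low to high dose. edgeR called 0 of 43, in a comparison where 0.289% of all genes passed, and DESeq2 also called 0. At an unadjusted p under 0.05 there were 6, all higher, and the share of all genes at that threshold was not counted. In 20 members every high-dose library lay above every low-dose library, as in 14.2% of all genes. The median of the members was 0.05. Once the outlying library stood among the low-dose samples, 22 members passed, 8 higher and 14 lower. The share of all genes that passed in that fit is not given here, so this count is not set against other genes.

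The formulas gave smaller increases. Guibi-tang raised 15 members from low to high dose and lowered 0, where 8.84% of all genes rose, with a median of 0.11. WDR3 was at 75.9, 82.3 and 83.2 CPM at low and 90.2, 92.3 and 95.7 CPM at high dose (0.21 ± 0.04, adjusted p = 0.000107). POLR1B, the second-largest subunit of RNA polymerase I, was at 64.4, 69.3 and 67.9 CPM at low and 78.8, 78.6 and 78.9 CPM at high dose (0.23 ± 0.05, adjusted p = 0.000336), and TSR1 was at 84.4, 86.5 and 87 CPM at low and 97, 103 and 93.7 CPM at high dose (0.19 ± 0.04, adjusted p = 0.000476). The doses did not overlap in these 3 genes. Of the 15 risers 14 also rose with Menthae Herba (93.3%), the exception being the processome protein WDR36. This is near the share of all 43 members that rose with Menthae Herba, 90.7%. In 19 members every high-dose library lay above every low-dose library, as in 15.6% of all genes. Means stood in rising dose order for 28 members, as in 23.5% of all genes. Without Guibi-tang high replicate 1 the count was 8, and with the outlying library it was 0.

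In Saengmaek-san 1 member rose and 0 fell, where 0.412% of all genes rose. That member was NOP56, at 245, 247 and 238 CPM at low and 267, 276 and 270 CPM at high dose (0.16 ± 0.04, adjusted p = 0.0359). In Soyo-san 1 member rose and 0 fell, where 1.11% of all genes rose, and it was NOLC1, at 354 and 349 CPM at low and 397 and 391 CPM at high dose (0.16 ± 0.04, adjusted p = 0.0315). Both calls were lost with any 1 library of the comparison left out, without the filter on low counts and with the outlying library, each giving 0 members. In Soyo-san DESeq2 called 4 members and RLE scaling 2. At an unadjusted p under 0.05 there were 20 members in Saengmaek-san and 16 in Soyo-san, all higher at high dose. The share of all genes at this unadjusted threshold was not counted, so these counts are not set against other genes. Every high-dose library lay above every low-dose library in 23 members of Saengmaek-san, as in 9.94% of all genes, and in 36 members of Soyo-san, as in 22.9% of all genes. The means stood in rising dose order for 27 members in Saengmaek-san, against 22.8% of all genes, and for 31 in Soyo-san, against 22.3%. Okbyeongpung-san, with 1 library a dose and no test, had 29 members in rising and 1 in falling dose order, where 20.1% of all genes rose in order.

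Saengmaek-san and Guibi-tang at high dose, both at 500 µg/mL, differed in 1 member, where 12.7% of all genes differed. RRP9 was at 47.1, 46.1 and 46.1 CPM in Saengmaek-san and at 52, 53.6 and 51.7 CPM in Guibi-tang (-0.17 ± 0.06, adjusted p = 0.0437), a call lost without any 1 of the 6 libraries, without the filter and with the outlying library (0 members each), while DESeq2 called 2 members. MYC differed by -0.07 ± 0.05 between them (adjusted p = 0.454) and by 0.01 without Saengmaek-san high replicate 1. Their dose effects differed in 0 members with edgeR, where 7.20% of all genes differed. The count was also 0 with the outlying library, and it was 1 with DESeq2. In edgeR 10 members had an unadjusted p under 0.05, 5 in each direction, with no share of all genes counted. Without Guibi-tang low replicate 1 or replicate 2, edgeR called 1.

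The medium dose changed no member against the low dose. Over the 7 extracts edgeR called 0 of 301 tests of a member and DESeq2 called 2. In edgeR 28 had an unadjusted p under 0.05, of which 25 were higher at medium dose. The share of all genes at that unadjusted threshold was not counted. Of all genes 2.60% passed in Aucklandiae Radix, 4.95% in Polygalae Radix, 0.0294% in Menthae Herba, 0.118% in Guibi-tang and 0% in Saposhnikoviae Radix, Saengmaek-san and Soyo-san. For MYC the largest of these differences was 0.16, in Polygalae Radix, where MYC was at 290 and 295 CPM at medium and 259 and 265 CPM at low dose. Without Polygalae Radix medium replicate 3 there were 2 calls, and with the outlying library 16, all of them in Saposhnikoviae Radix.

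The vehicle was the other reference. All comparisons with it use the same 3 vehicle libraries, whose names begin with a letter while those of every extract begin with a number. An effect of an extract and a difference between these differently named sets of libraries cannot be told apart. At high dose the members that differed numbered 36 in Menthae Herba, all higher (28.2% of all genes differed), and 29 in Aucklandiae Radix, 21 higher and 8 lower (62.0%). There were 26 in Polygalae Radix, 11 higher and 15 lower (36.5%), 18 in Guibi-tang, 15 higher and 3 lower (29.4%), and 15 in Soyo-san, 14 higher and 1 lower (17.7%). Saposhnikoviae Radix and Saengmaek-san had 6 each, 5 higher and 1 lower (10.2% and 12.0%). The 1 lower member in Soyo-san, Saposhnikoviae Radix and Saengmaek-san was MYC. In the same order the fit with the outlying library gave 8, 14, 9, 2, 0, 0 and 0. Without vehicle replicate 1 Saposhnikoviae Radix had 10 and without vehicle replicate 3 it had 3, Saengmaek-san had 3 without high replicate 1, and Soyo-san had 9 without high replicate 2.

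Besides MYC, the members called in the most extracts at low dose were WDR36 and UTP20, both processome proteins. Other processome proteins went the other way: NOP14, UTP14A, DDX10 and RRP9 lay below the vehicle at low dose in all 7 extracts. WDR36 was at 69.3, 74.1 and 64.5 CPM in the vehicle, and 55 of 56 extract libraries lay above the highest of these. At low dose it was higher by 0.25 to 0.34 and passed in 7 of 7 extracts. UTP20, a large protein that binds the early precursors, was at 77.9, 85.4 and 84.7 CPM in the vehicle, with 52 of 56 extract libraries above, and was higher by 0.22 to 0.32 at low dose, passing in 6 of 7. NOP10, RRP9 and PNO1 were lower by test at low dose in 4 extracts each. NOP10, for instance, was at 94.2, 104 and 126 CPM in the vehicle and at 85.9, 94.3 and 95.3 CPM in Menthae Herba low, which overlap. In all, 21 members lay below the vehicle at low dose in all 7 extracts. Another 7 lay above it in all 7, namely WDR36, UTP20, UTP15, HEATR1, WDR43, WDR75 and WDR12. All 7 comparisons use the same vehicle libraries, so agreement in direction between extracts is not independent, for these members and those named above. The share of all genes with such agreement was not counted, so these counts are not set against other genes.

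Counted over the 7 extracts, 45 member tests passed at low dose, 14 higher and 31 lower, and 40 at medium dose, 23 higher and 17 lower. At low dose there were 3 members in Aucklandiae Radix (4.97% of all genes), 8 in Polygalae Radix (9.98%), 6 in Menthae Herba (9.46%), 7 in Saposhnikoviae Radix (11.5%), 13 in Saengmaek-san (18.0%), 2 in Guibi-tang (6.04%) and 6 in Soyo-san (9.80%). At medium dose there were 7 (13.6%), 7 (10.1%), 9 (10.1%), 2 (3.68%), 5 (11.4%), 4 (11.0%) and 6 (8.58%) in the same order. Several of these shares are close to those of all genes. Single vehicle libraries weighed heavily: without vehicle replicate 1 the low-dose total was 105 and the medium-dose total 82, and without vehicle replicate 3 they were 13 and 19. In single extracts the counts ran from 1 to 21 at low dose and from 1 to 18 at medium dose when 1 vehicle or extract library was left out. The fit with the outlying library gave totals of 20, all in Saposhnikoviae Radix, and 0. Vehicle replicate 1 held the lowest value of all 59 libraries for 6 members.

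Gene length moved with these differences. Across the 43 members, the rank correlation of exon length with the low-dose difference from the vehicle was 0.58 to 0.71 in the 7 extracts, against 0.14 to 0.26 across 16859 genes. It is a correlation across genes in libraries that share the vehicle, given as a description. In Saengmaek-san the 21 members longer than the median exon length of 4.2 kb had a median difference of 0.01, and the 22 others one of -0.13. From low to high dose, which uses no vehicle library, the correlation across the members ran from -0.54 in Saengmaek-san to 0.40 in Guibi-tang, with -0.33 in Menthae Herba. The part of length in the differences was not tested.

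**Figure D5:**
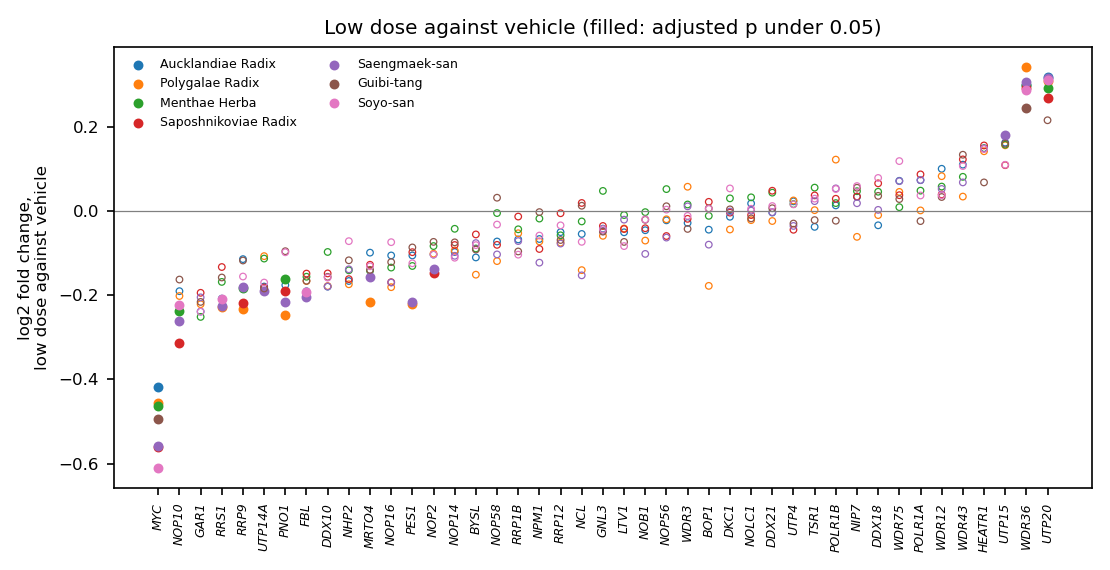
Log2 difference of low dose from the vehicle (vertical axis) for the 43 members (horizontal axis), 1 dot per extract, filled where adjusted p was under 0.05. MYC dots lie between -0.61 and -0.42 and are filled in 7 of 7 extracts, WDR36 dots lie between 0.25 and 0.34 and are also filled in 7 of 7, and most other members lie near 0.

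Other genes of the pathway were read from lists made beside the members (in high against low dose). The counts in these lists, here and below, stand beside the following shares of all genes. In Aucklandiae Radix 29.6% rose and 29.1% fell, and in Polygalae Radix 13.3% rose and 16.0% fell. In Menthae Herba 12.0% rose and 23.5% passed in either direction, and in Guibi-tang 8.84% rose and 17.9% passed in either direction. In Menthae Herba 29 of 38 further 60S factors, 27 of 41 further 40S factors, 8 of 18 genes of the polymerase I machinery and 24 of 28 other MYC targets rose from low to high dose, and 0 fell in each. In Aucklandiae Radix 24 of 38 of the 60S factors rose and 3 fell, among them GTPBP4, a GTPase on the 60S precursor, at 126 and 176 CPM at low and high dose (0.49 ± 0.05, adjusted p = 1.3e-10). Of the 40S factors 24 of 41 rose and 3 fell, with the kinase RIOK3 at 47.3 and 110 CPM (1.22 ± 0.07, adjusted p = 2.75e-19) and AATF at 138 and 256 CPM (0.89 ± 0.08). In Polygalae Radix 14 of 38 of the 60S factors rose and 5 fell, and 14 of 41 of the 40S factors rose and 7 fell. TEX10 rose by 0.42 ± 0.06, SURF6 by 0.51 ± 0.09, and the RNA acetyltransferase NAT10 fell (-0.35 ± 0.04). Guibi-tang raised 5 factors in each of these lists, and Saposhnikoviae Radix, Saengmaek-san and Soyo-san none.

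The genes that host small nucleolar RNAs went opposite ways in the 2 herbs. In Aucklandiae Radix 11 of 17 fell and 0 rose (median -0.36), led by SNHG29 at 187 and 117 CPM at low and high dose (-0.67 ± 0.05, adjusted p = 1.36e-16) and SNHG3 at 108 and 59.9 CPM (-0.84 ± 0.07). In Polygalae Radix 12 of 17 rose and 0 fell (median 0.27), led by EPB41L4A-AS1 (0.53 ± 0.07) and SNHG17 (0.52 ± 0.07). EPB41L4A-AS1 is an antisense gene, and since the strand setting of the counting is not known its reads and those of its partner cannot be told apart. At high dose 15 of 17 were higher in Polygalae Radix than in Aucklandiae Radix and 0 lower. The members FBL and NOP56, whose proteins carry box C/D RNAs, were also higher there, as given above. Their partner NOP58 differed by 0.18 (adjusted p = 0.128), which did not pass. From low to high dose FBL fell in both herbs, and NOP56 fell in Aucklandiae Radix and rose in Polygalae Radix. In Guibi-tang 7 of 17 fell and 0 rose, where 17.9% of all genes passed in either direction. In Menthae Herba 3 rose and 0 fell, where 23.5% of all genes passed in either direction.

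In the polymerase I machinery UBTF, the factor that opens ribosomal DNA, fell in Aucklandiae Radix from 133 to 72.9 CPM (-0.87 ± 0.07, adjusted p = 6.18e-14), while the initiation factor RRN3 rose by 0.29 ± 0.06. That list had 5 rising and 4 falling genes of 18 in Aucklandiae Radix and 7 rising and 0 falling in Polygalae Radix, among them POLR1D (0.33 ± 0.05) and POLR1G (0.37 ± 0.07). In the RNA exosome, which trims precursor RNAs, 5 of 14 rose and 5 fell in Aucklandiae Radix. There EXOSC3 changed by 0.44 ± 0.09 and EXOSC9 by -0.49 ± 0.07. In Polygalae Radix 1 rose and 3 fell, and the helicase MTREX fell most surely (-0.50 ± 0.08). Of all genes 29.6% rose and 29.1% fell in Aucklandiae Radix, and 13.3% rose and 16.0% fell in Polygalae Radix.

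In the MYC network of 13 tested genes 5 rose and 5 fell in Aucklandiae Radix, where 29.6% of all genes rose and 29.1% fell. MXD1, a MAX partner that opposes MYC, rose from 35.4 to 82.7 CPM (1.23 ± 0.08, adjusted p = 3.17e-18), and MXD4, of the same family, fell (-1.06 ± 0.08). In Polygalae Radix 6 rose and 3 fell, with MAX at 0.31 ± 0.07 and MXD4 at -0.51 ± 0.08. Other MYC targets, which are not ribosome factors, rose in 6 and fell in 13 of 28 genes in Aucklandiae Radix, and rose in 5 and fell in 14 in Polygalae Radix. ODC1, the first enzyme of polyamine synthesis, rose in both (0.64 ± 0.04 and 0.19 ± 0.04), while the purine enzymes PAICS in Aucklandiae Radix (-0.68 ± 0.05) and ATIC in Polygalae Radix (-0.76 ± 0.04) fell. MYC itself rose in both, as given above.

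Cell division genes moved in the same libraries. In Aucklandiae Radix 20 of 20 fell (median -0.96), in Polygalae Radix 14 of 20 fell and 0 rose (median -0.35), and in Menthae Herba 10 of 20 rose and 0 fell (median 0.13). KIF20A, a mitotic kinesin, went from 67.6 to 23 CPM in Aucklandiae Radix (-1.55 ± 0.05) and from 64.7 to 42.5 CPM in Polygalae Radix (-0.60 ± 0.05). CDKN1A, the cell-cycle inhibitor p21, which MYC represses, rose from 9.85 to 102 CPM in Aucklandiae Radix (3.37 ± 0.09) and from 10.8 to 20.4 CPM in Polygalae Radix (0.92 ± 0.10). Of 8 genes known to be repressed by MYC 5 rose and 2 fell in Aucklandiae Radix, 3 rose and 2 fell in Polygalae Radix and 1 rose and 1 fell in Menthae Herba. Of 10 genes of the nucleolar stress response, CDKN1A among them again, 1 rose and 9 fell in Aucklandiae Radix and 2 rose and 3 fell in Polygalae Radix. The part of cell division in the values of the members was not tested.

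Taken member by member over the 7 comparisons of high with low dose, 107 of 301 tests passed (35.5%, against 19% over all genes), 92 higher and 15 lower. RRP9, TSR1 and NOP16 rose in 4 extracts each (Aucklandiae Radix, Polygalae Radix, Menthae Herba and Guibi-tang). NOP58 passed in none. FBL, NHP2, NPM1 and NOP14 each rose in 1 extract (Menthae Herba) and fell in 2 (Aucklandiae Radix and Polygalae Radix). All 5 members that fell with Aucklandiae Radix rose with Menthae Herba, as did 9 of the 10 that fell with Polygalae Radix, the exception being POLR1A. Of all 43 members 90.7% rose with Menthae Herba, so such overlaps are near the share of the whole set.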

How the data were processed

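The deposited table holds expected counts, estimated per gene by the authors with RSEM (version 1.3.3). The submitters' processing notes also name STAR 2.7.3a as aligner, Trim Galore 0.6.5, FastQC 0.11.9 and the hg38 build. The sources used here state neither the annotation release nor the strand setting. Of the deposited values 10% were not whole (25.8% for the members), and all were rounded. The test was the two-sided quasi-likelihood F-test of edgeR (4.0.16, R 4.3.3) with TMM scaling, filterByExpr by group and 1 coefficient per group. Benjamini-Hochberg adjustment ran over 16978 genes, with calls made below 0.05. In all 56 libraries, 3 of them vehicle and the rest in 21 groups of 2 or 3, were fitted together, leaving 34 residual degrees of freedom. SE is the log2 fold change divided by the square root of F. CPM is the rounded count per 1000000 of the TMM-scaled total of the tested genes. Exon lengths are from GENCODE 29. The code was tested on simulated data.

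The members and the gene lists were chosen with earlier results of these data known. Named genes were MYC in every comparison, the 3 members with the lowest adjusted p on each side in comparisons of high with low dose and of 2 extracts at high dose, the largest changes of a role group, and up to 2 genes a direction of each list. Alternatives were the fit of 57 libraries with the outlying one, RLE factors, DESeq2 1.42.0, no filter, replicate number as a block, and each library left out.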

Additional observations from a re-analysis of the deposited data

Results flagged for a closer look

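The change from low to high dose differed between extracts in 3 results, each by a test of the difference itself (an interaction in the edgeR fit). Between Polygalae Radix and Aucklandiae Radix it differed in 20 members, 8 with a higher and 12 with a lower change in Polygalae Radix (46.5% of the members and 46.6% of all genes, so the members were called no more often than other genes). RRP12, WDR3 and DDX18 lead the lower side and NOP56, FBL and RRP1B the higher side. MYC differed there by 0.22 on the log2 scale (adjusted p = 0.0444), 0.39 in Polygalae Radix against 0.17 in Aucklandiae Radix. With DESeq2 that difference was 0.20 (adjusted p = 0.0666) and with RLE factors 0.20 (adjusted p = 0.07), and it missed the threshold without any 1 of 7 of the 8 libraries. Between Menthae Herba and Saposhnikoviae Radix the change differed in 9 members, all with a higher change in Menthae Herba, led by TSR1, WDR3 and NIP7 (20.9% of the members and 3.59% of all genes). The 9 became 2 without Saposhnikoviae Radix low replicate 1. No group has 4 or more libraries, so single values were not tested as outliers.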

How the results depend on the processing

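The outlying library and single libraries of the small groups moved many of the counts of members. With the outlying library, high against low dose gave 10 members in Aucklandiae Radix, 8 in Polygalae Radix, 10 in Menthae Herba, 22 in Saposhnikoviae Radix and 0 in Saengmaek-san, Guibi-tang and Soyo-san. High dose against the vehicle gave 14, 9, 8, 0, 0, 2 and 0 in the same order. The 3 comparisons at high dose gave 10 (Polygalae Radix against Aucklandiae Radix), 6 (Menthae Herba against Saposhnikoviae Radix) and 0 (Saengmaek-san against Guibi-tang), and the dose effects 2, 19 and 0. Summed over 7 extracts there were 16 calls for medium against low dose, 0 for medium and 20 for low dose against the vehicle. MYC turned direction in 2 uncalled results there, Guibi-tang medium against low (1e-04) and the dose effect of Menthae Herba against Saposhnikoviae Radix (-0.3442).

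Without the filter on low counts the count was 0 in Saengmaek-san and Soyo-san high against low and in Saengmaek-san against Guibi-tang, 2 in the dose effect of the last pair and 2 for medium against low, and MYC in Soyo-san medium against low was -0.0011. RLE factors gave 2 members in Soyo-san high against low, and MYC in Guibi-tang medium against low was 0.0015 with RLE and 0.0015 with DESeq2. DESeq2 gave 4 members in Soyo-san high against low, 2 in Saengmaek-san against Guibi-tang, 15 and 1 in the dose effects of Menthae Herba and of Saengmaek-san against their partners, and 2 for medium against low. Replicate numbers did not pair the libraries (correlations of same-numbered deviations from -0.045 to 0.113). With the replicate block the count was 2 in Soyo-san high against low, 1 in the dose effect of Saengmaek-san against Guibi-tang and 1 for medium against low, and the other counts of members stayed within 1.5 times. With the block MYC passed the test in Menthae Herba high against the vehicle (-0.1325, adjusted p = 0.0205). The cause of these moves was not tested.

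With each library left out in turn, high against low dose gave 23 to 25 members in Aucklandiae Radix, 15 to 20 in Polygalae Radix, 34 to 38 in Menthae Herba, 8 to 13 in Guibi-tang and 0 in the other 3 extracts. High dose against the vehicle gave 25 to 31, 18 to 26, 26 to 38, 3 to 10, 3 to 8, 15 to 22 and 9 to 21 in the order above. The comparisons at high dose gave 22 to 26, 28 to 31 and 0, and the dose effects 15 to 20, 2 to 10 and 0 to 1. The sums were 0 to 2 for medium against low, 19 to 82 for medium and 13 to 105 for low dose against the vehicle. MYC turned direction in uncalled results only, and its log2 difference ranged from -0.0337 to 0.0301 in Saengmaek-san, -0.0312 to 0.0378 in Guibi-tang and -0.008 to 0.0166 in Soyo-san for medium against low dose. It ranged from -0.1139 to 0.0206 in Polygalae Radix high against the vehicle, from -0.1486 to 0.0116 in Saengmaek-san against Guibi-tang and from -0.0845 to 0.075 in their dose effect. GAR1, the member with the lowest level in CPM, had a vehicle mean of 29.3 CPM and passed the filter on low counts, as all members did.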
